A study of Mus musculus with 14 samples.

Results

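The response of dorsal horn microglia to K/BxN serum transfer (ST) was measured in TASTPM mice, by comparing the 4 TASTPM K/BxN ST libraries (R1, R2, R3 and R4) with the 3 TASTPM Control ST libraries of a 14-library RNA-seq experiment. A gene was included when at least 4 of these 7 libraries had 10 or more reads on it, which left 12602 of 14329 genes (87.9%). The remaining 1727 genes failed this filter on low values. At the edge of the filter, Adcy4 was just inside with 39, 0, 2 and 28 reads in R1 to R4 and 0, 10 and 92 in Control ST, and Ackr4 was just outside with 27, 1, 0 and 9 reads and 79, 8 and 18. Genes for which all 4 K/BxN ST libraries lay on one side of all 3 Control ST libraries are described apart from genes that were high in R1 and R2 only. Each of these classes was chosen on the values it shows, so its values are a description and carry no test.

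TASTPM mice are heterozygous for human APP with the Swedish mutation and for a further human transgene, each under the control of a murine Thy-1 promoter, which is active in neurons. Expression of the transgenes in the sequenced cells was not examined here. The mice were 6-month-old males and females on a C57BL/6 background. Both TASTPM groups carried the transgenes and both received serum by intraperitoneal injection, arthritogenic serum of K/BxN mice in one group and control serum in the other. Cells were sorted from the dorsal spinal cord at day 5, 2000 per library, with a gate on low CD45, on CD11b and CX3CR1, and against Ly6C and CCR2. WT libraries, 4 of K/BxN ST and 3 of Control ST, serve here as the comparison for genotype. By the study's methods the replicates were individual mice, which the labels of the libraries do not number.

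Microglia are the resident macrophages of the central nervous system. In the resting state they express P2ry12, Tmem119, Cx3cr1 and Csf1r, and in models of amyloid deposition they gain Apoe, Clec7a, Cst7 and other genes of the disease-associated state. K/BxN serum contains antibodies to glucose-6-phosphate isomerase that cause arthritis and lasting mechanical hypersensitivity, and microglia of the dorsal horn lie where the nerve fibres from the joints end. The paper names the gate on low CD45 and against Ly6C and CCR2 as a reason why its CD11c and MHCII positive cells were unlikely to be monocytes or dendritic cells. Transcripts of blood-derived monocytes and neutrophils include Ly6c2, Ccr2, S100a8 and S100a9. The comparison addresses how microglia that already live in an amyloid-producing nervous system respond to arthritis.

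The 7 libraries held 14371340 to 18097010 reads on genes, which did not separate the groups (two-sided exact permutation test, p = 0.457), and 12483 to 13945 genes had reads, the fewest in R3. Across genes, R1 and R2 correlated with each other at a Pearson r of 0.924 on the log2 scale, whereas the other pairs lay between 0.746 and 0.878. Summed microglial markers took 4.14% of reads in R1, 8.35% in R2, 11.8% in R3 and 12.4% in R4, against 12.8%, 12.6% and 11.3% in Control ST. All 20 of them were detected, so the labelled cell type was present in every library, at its lowest share in R1 and R2. Classical monocyte markers took 4.64% and 2.41% of reads in R1 and R2, 0.0758% and 0.0679% in R3 and R4, and 0.0785% to 0.145% in Control ST. Neutrophil markers took 1.26% and 1.27% in R1 and R2 and between 0.0243% and 0.0444% in the other 5 libraries. Markers of border-associated macrophages also stood highest in R1 and R2, at 0.203% and 0.071%, against 0.00108% to 0.0121% elsewhere. R1 and R2 thus stand apart from R3, R4 and the controls by transcripts that mark monocytes and neutrophils, although the gate was set against Ly6C and CCR2. In WT K/BxN ST the monocyte genes split likewise, as Ly6c2 had 23510, 12900, 3.58 and 13.1 normalized counts (reads on a gene after scaling by the factor of its library) and Ccr2 had 22990, 19660, 5.97 and 9.81. The neutrophil genes did not, as S100a8 had 53590, 143, 5.97 and 378 and Ngp had 55010, 32.8, 8.36 and 51.3, with the first WT library alone far above the others. Markers of astrocytes, oligodendrocytes, neurons and endothelial cells each took at most 0.0509% of reads in any of the 7 libraries.

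**Figure D1:**
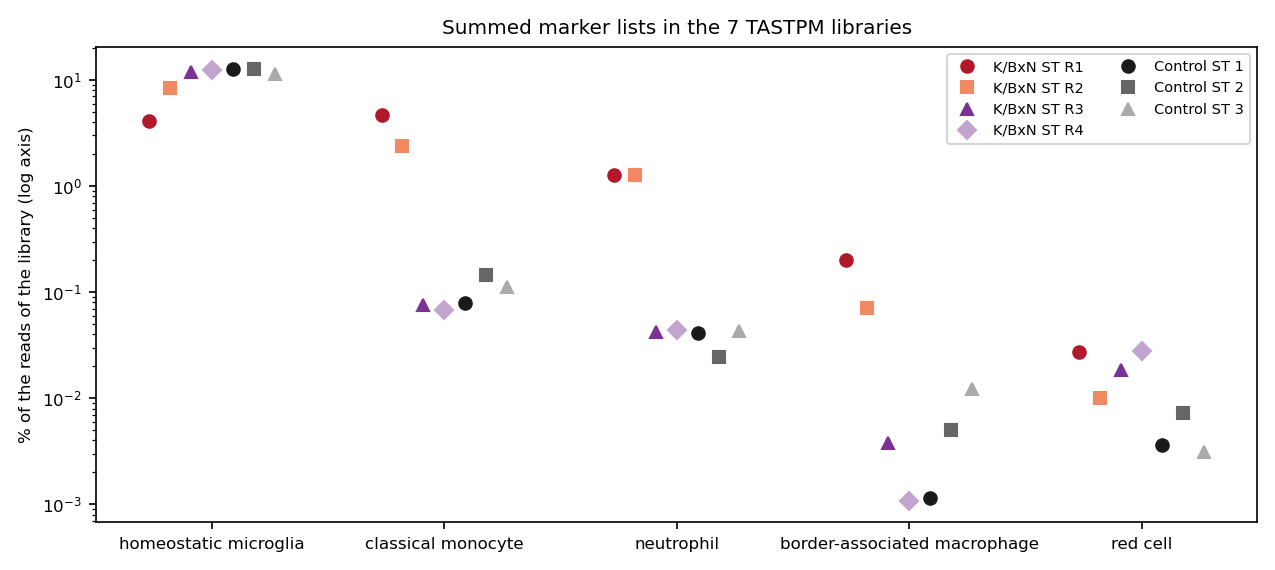
Share of the reads of each TASTPM library, in percent on a log axis, taken by summed markers of microglia and of 4 other cell types, with 1 point per library. For monocytes, neutrophils and border-associated macrophages R1 and R2 lie above the other 5 libraries, for homeostatic microglia R1 and R2 lie lowest, and for red cells all 4 K/BxN ST libraries lie above all 3 Control ST libraries.

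Sex-linked transcripts were not balanced between the groups. The Y-linked Ddx3y had 917, 781, 1048 and 1.13 normalized counts in R1 to R4 and 0, 3.33 and 1481 in Control ST. Xist, which is made from the inactive X chromosome, had 12.5, 0, 1.18 and 3980 normalized counts in R1 to R4 and 4321, 5048 and 202 in Control ST. Ddx3y was thus high in 3 of 4 K/BxN ST and 1 of 3 Control ST libraries, and the third Control ST library held both transcripts. With the level of Xist as a covariate, limma called 0 genes, and 277 had an unadjusted p below 0.05.

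In the fit of all genes, limma called 0 of 12602 genes (0% of the genes tested) at thresholds of 0.05 for the adjusted p and 1 for the size of the log2 fold change. The smallest adjusted p was 0.965, so no gene named below passed the limma test for the response to serum. At an unadjusted p below 0.05, 328 genes (2.6%) were higher and 203 (1.61%) were lower in K/BxN ST. A positive log2 fold change was found for 50.2% of genes, and the median over all genes was 0.00273. None was called by edgeR, in which 486 genes had an unadjusted p below 0.05. DESeq2 called 13 genes higher (0.103%) and 2 lower (0.0159%). Without R1 and R2, none was called by limma, and 221 higher and 316 lower genes had an unadjusted p below 0.05. In bulk libraries such as these, fewer cells of a type and less RNA per cell cannot be told apart.

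All 4 K/BxN ST libraries lay above all 3 Control ST libraries for 338 genes (2.68%) and below them for 349 genes (2.77%). Counting how many of the 4 libraries exceeded the highest control, 5357 genes had none, 3255 had 1, 2674 had 2 and 978 had 3. Where exactly 2 libraries exceeded it, they were R1 and R2 for 1414 genes (52.9%) and R3 and R4 for 594 genes (22.2%), while each of the other 4 pairs made up 124 to 246 genes. Among genes with exactly 2 libraries under the lowest control, R1 and R2 made up 973 of 2343 (41.5%) and R3 and R4 559 (23.9%). Most separations were small. The 338 genes had a median log2 fold change of 0.904, and for 19 of them the lowest K/BxN ST value was at least 2-fold over the highest control. The 349 genes had a median of -0.808, with 8 separated by a gap of that size. For a single gene, 4 libraries against 3 allow 35 assignments and a smallest two-sided exact permutation p of 0.0286.

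Among the 338 genes, those with the smallest limma p are described first, leaving out predicted genes. Polr3c, on the minus strand of chromosome 3 of GRCm39 from 96616504 to 96635128, encodes a subunit of RNA polymerase III, which transcribes transfer RNAs and other short RNAs. It had 958, 795, 537 and 544 normalized counts in R1 to R4, against 355, 247 and 204 in Control ST, a log2 fold change of 1.39 (SE 0.31). R3 and R4 were above each of the controls, as were R1 and R2, and the log2 fold change without R1 and R2 was 1.05. In WT the log2 fold change of Polr3c was 0.93 (SE 0.31), and the difference between genotypes had an unadjusted p of 0.316. Cpsf1, which encodes a subunit of the complex that cleaves and polyadenylates messenger RNA, had 991, 736, 990 and 978 normalized counts in R1 to R4 and 411, 381 and 632 in Control ST. The K/BxN ST values were close together apart from R2, and all lay above the controls (log2 fold change 0.99, SE 0.24). Uba3, a subunit of the enzyme that activates NEDD8, ranged from 841 to 1066 normalized counts across R1 to R4 and from 522 to 537 in Control ST, with a log2 fold change of 0.80 (SE 0.21). Its 3 controls lay close together.

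Several others were scarce in Control ST. Stat4, a signal transducer downstream of interleukin 12 and type I interferon, had 105, 78.0, 94.0 and 18.1 normalized counts in R1 to R4 and none in the 3 controls. The mean of the 4 was at least 24.1-fold higher than 3 reads per library, the smallest number taken as detectable. Ncapg, a condensin subunit, had 563, 262, 162 and 26.0 normalized counts in R1 to R4 and 1.05, 0 and 0 in Control ST. Its values were highest in R1 and R2 but were also present in R3 and R4, which differs from the other mitotic genes described below. The mitochondrial carrier Slc25a29, which transports basic amino acids, had 91.5, 56.1, 242 and 116 normalized counts in R1 to R4 and 0, 49.96 and 0 in Control ST, a log2 fold change of 4.90 (SE 1.17). R3 and R4 were the highest for Slc25a29, and R2 lay only just above the second control. Without that control, limma called Slc25a29 and no other gene (adjusted p = 0.0223). Nek4, a kinase of the NIMA family, had 111, 158, 260 and 339 normalized counts in R1 to R4 against 2.09, 42.2 and 69.1 in Control ST, again with R3 and R4 highest.

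Among transcription and stress regulators in the same class, Srf had 279, 126, 485 and 165 normalized counts in R1 to R4 and 30.3, 109 and 36.3 in Control ST (log2 fold change 2.20, SE 0.62). Serum response factor drives immediate early genes, and the gap between R2 and the highest control was small. Ppp1r15b, which encodes the constitutive factor that directs dephosphorylation of the translation factor eIF2α, had 2163, 1498, 2727 and 2093 normalized counts in R1 to R4 and 1253, 1059 and 1406 in Control ST. Its log2 fold change was 0.75 (SE 0.21), with R3 highest.

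**Figure D2:**
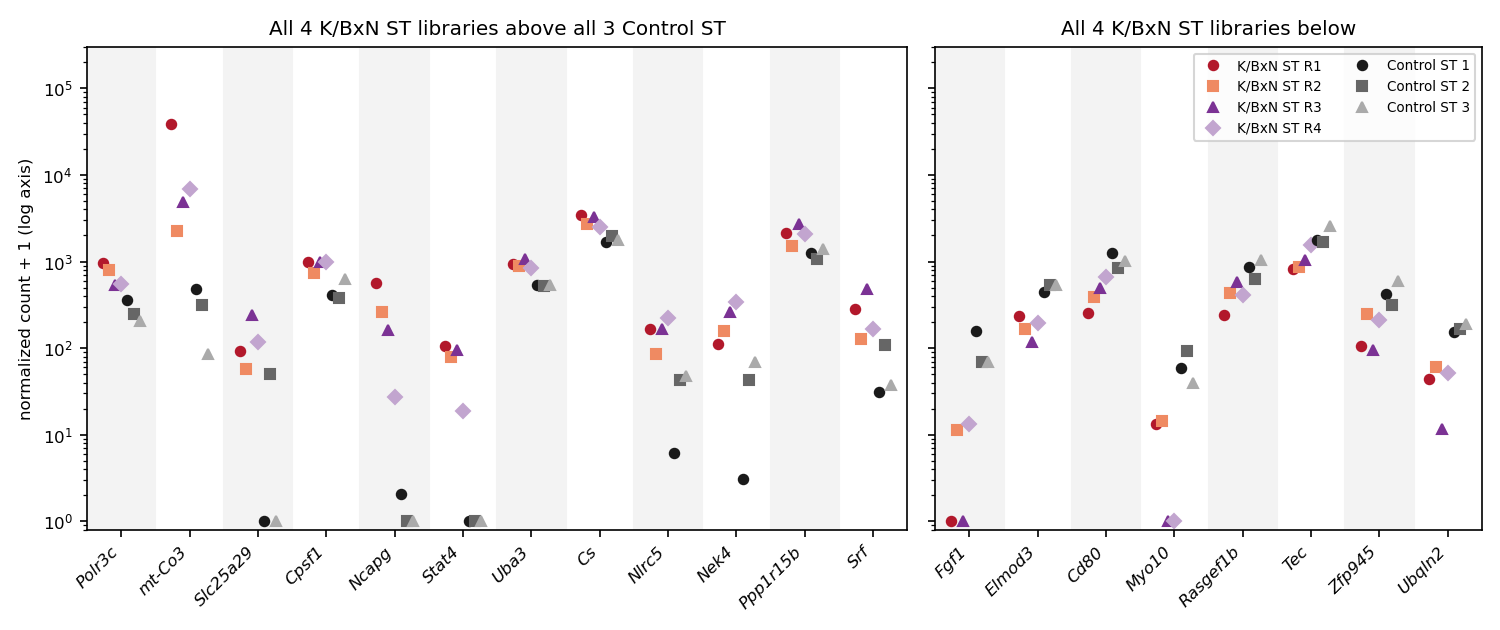
Normalized count plus 1, on a log axis, of 12 genes with all 4 K/BxN ST libraries above all 3 Control ST libraries (left) and of 8 genes with all 4 below (right), 1 point per library. Predicted and clone genes aside, those with the smallest limma p of each class are shown, so the separation is by choice, and Stat4 and Ncapg sit at or near 0 in the controls while Fgf1 and Myo10 sit at 0 in 2 K/BxN ST libraries each.

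Transcripts of the mitochondrial genome split by gene. This list was drawn up after its values were seen. mt-Co3, subunit 3 of cytochrome c oxidase, lies on the mitochondrial genome from 8607 to 9390 and had 38420, 2272, 4929 and 6850 normalized counts in R1 to R4 against 477, 312 and 85.4 in Control ST. The lowest K/BxN ST library, R2, was far above the highest control, and the log2 fold change was 4.97 (SE 1.13). mt-Co2 had 12190, 1394, 2547 and 4417 normalized counts in R1 to R4 and 632, 237 and 74.5 in Control ST, and mt-Nd4l had 696, 56.1, 192 and 879 against 11.5, 14.4 and 5.45. Both followed mt-Co3 in that the groups did not overlap. By contrast mt-Co1 had 41530, 27940, 17130 and 20130 normalized counts across R1 to R4 and 19070, 35840 and 16860 in Control ST, so the groups overlapped (log2 fold change 0.16, SE 0.35). Of 15 mitochondrially encoded genes, 3 had all K/BxN ST libraries above (20%, against 2.68% of all genes), 7 had a positive log2 fold change and the median was -0.0779. These became 6 and -0.371 without R1 and R2. Taken as a whole, the 15 genes held 0.565% to 1.48% of reads in K/BxN ST and 0.574% to 1.66% in Control ST. mt-Atp6 had 39810, 3142, 4777 and 6600 normalized counts across R1 to R4 and 749, 212 and 7994 in Control ST, where the third control reached the level of the K/BxN ST libraries. In WT, the log2 fold change of mt-Co3 was -0.29, and the difference between genotypes was 5.26 (SE 1.60) with an unadjusted p of 0.00511. WT libraries held 2731, 34250 and 12540 normalized counts after control serum, and 21610, 18590, 13430 and 1022 after arthritogenic serum. The TASTPM controls lay below every WT library, whereas R2, R3 and R4 lay within the WT range and R1 above it. Whether low TASTPM controls or the serum set this difference was not tested.

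Haemoglobin transcripts, which mark red cells, were also higher in all 4 K/BxN ST libraries. Hba-a1 had 2083, 911, 1465 and 2576 normalized counts in R1 to R4 and 357, 610 and 240 in Control ST. For Hbb-bs, R1 to R4 had 1557, 405, 1020 and 1318 normalized counts, against 137, 340 and 119 in Control ST. The lowest value was R2 in both, and it was still above the highest control. Hba-a2 and Hbb-bt showed the same order, so 4 of the 5 red cell genes past the filter had no overlap, against 2.68% of all genes. The near-identical globin pairs share reads, so the split between their copies is uncertain. Alas2, the enzyme of haem synthesis in red cell precursors, was the exception, with 66.6, 22.8, 21.2 and 0 normalized counts across R1 to R4 and 27.2, 46.6 and 40.0 in Control ST. As a share of reads the list took 0.0101% to 0.0276% in K/BxN ST and 0.00309% to 0.0072% in Control ST. In WT the shares were 0.004% to 0.0155% in K/BxN ST and 0.00834% to 0.242% in Control ST, where 1 library was far above the rest. The part of red cell transcripts in other results was not tested.

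Interferon-stimulated genes encode antiviral effectors and the factors that switch them on, and many carry the interferon-stimulated response element (ISRE) to which a complex that contains STAT2 and IRF9 binds. Of 39 genes listed, 35 passed the filter. Among these 27 had a positive log2 fold change, with a median of 0.791, and 5 had all K/BxN ST libraries above all controls (14.3%, against 2.68% of all genes), namely Irf1, Stat2, Oas1a, Ifi204 and Zbp1. The ISRE was searched as GAAANNGAAA on both strands of RefSeq promoters, 250 bases before to 50 bases after each start site on GRCm38.p6. It was found in 19 of 38 promoters of the list (50%) and in 3.44% of all promoters of the table. The promoters of Stat2 and Oas1a are printed because both genes had no overlap between groups and hold the motif, which is in capitals. The 2 promoters of Irf1 hold no match, and those of Ifi204 and Zbp1 were not analysed here. The Stat2 promoter lies at chr10:128270248-128270547 on the plus strand and the Oas1a promoter at chr5:120907476-120907775 on the minus strand. In the Stat2 promoter the element is on the reverse strand and begins 222 bases before the start site, and in the Oas1a promoter 2 overlapping matches begin 20 and 14 bases before it.
Stat2: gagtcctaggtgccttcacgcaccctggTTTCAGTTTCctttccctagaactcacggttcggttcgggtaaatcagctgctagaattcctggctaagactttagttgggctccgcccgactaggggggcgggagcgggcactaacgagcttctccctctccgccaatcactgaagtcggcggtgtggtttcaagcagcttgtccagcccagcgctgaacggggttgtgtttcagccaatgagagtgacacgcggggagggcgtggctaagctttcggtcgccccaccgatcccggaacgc
Oas1a: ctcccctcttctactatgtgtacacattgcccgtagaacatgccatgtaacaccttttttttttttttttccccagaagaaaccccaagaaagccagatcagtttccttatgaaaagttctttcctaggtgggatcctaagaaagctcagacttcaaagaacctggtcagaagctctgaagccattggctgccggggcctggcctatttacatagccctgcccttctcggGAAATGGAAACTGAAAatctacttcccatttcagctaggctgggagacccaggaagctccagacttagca

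The values behind these genes differed in kind. Stat2 had 466, 660, 600.3 and 495 normalized counts in R1 to R4 and 394, 365 and 373 in Control ST (log2 fold change 0.54, SE 0.37), an even and small difference. Irf1, the transcription factor of the interferon-gamma response, had 1881, 1441, 1620 and 1611 against 1195, 1154 and 1429 normalized counts, with R2 only just above the third control. Oas1a, which makes the second messenger of RNase L, had 859, 848, 352 and 257 normalized counts in R1 to R4 and 216, 160 and 109 in Control ST. R1 and R2 were higher than R3 and R4 for Oas1a, and all 4 exceeded the controls (log2 fold change 1.70, SE 0.60). The nucleic acid sensor Zbp1 had 737, 608, 110 and 72.2 normalized counts in R1 to R4 and 18.8, 38.9 and 25.4 in Control ST, again with R1 and R2 highest. Irf7 had 1752, 1488, 317 and 169 normalized counts across R1 to R4 and 181, 204 and 0 in Control ST, so R4 overlapped with the controls. Reads on Oas1a and on other members of its gene family can be shared between near copies.

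Other interferon targets did not follow. Ifit3, an antiviral effector, had 239, 592, 242 and 595 normalized counts in R1 to R4 and 1211, 451 and 18.2 in Control ST, so the controls spanned both ends. Cxcl10, a chemokine that draws T cells, had 48.9, 125, 0 and 0 normalized counts across R1 to R4 and 153, 298 and 115 in the 3 controls, and its log2 fold change of -4.30 (SE 1.98) was the lowest of the list. Ifitm3 had 32670, 12280, 289 and 675 normalized counts in R1 to R4 and 1009, 872 and 433 in Control ST, so that only R1 and R2 were high. In all, 5 of the 35 genes were high in R1 and R2 only (14.3%, against 1.85% of all genes). With R1 and R2 left out, 20 of 35 genes of the list had a positive log2 fold change, and the median was 0.271. The median ratio to the control mean was 1.12 in R1, 1.44 in R2, 0.0823 in R3 and 0.362 in R4 on the log2 scale, while the third control stood at -0.628. The whole list therefore separated R1 and R2 and not R3 and R4.

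For MHC class II, which presents peptides to CD4 T cells, H2-Aa had 28160, 6568, 612 and 1143 normalized counts in R1 to R4 and 529, 53.3 and 17.3 in Control ST. All 4 K/BxN ST libraries were above the controls for H2-Aa, 1 of 9 genes (11.1%, against 2.68% of all genes), although R3 was near the first control (log2 fold change 5.39, SE 2.46). Cd74, the invariant chain, had 99620, 26820, 3077 and 4515 normalized counts across R1 to R4 and 3213, 1569 and 1109 in Control ST, with R3 inside the range of the controls. H2-Ab1 and H2-Eb1 were high in R1 and R2 only. Of 9 genes past the filter 6 had a positive log2 fold change, with a median of 1.25, and without R1 and R2 it was 7 genes and 0.751. The groups overlapped for the peptide-editing genes. H2-DMa had 8695, 9728, 9684 and 9120 normalized counts across R1 to R4 and 11140, 11320 and 8116 in Control ST, while H2-DMb1 had 9244, 5319, 3452 and 3582 against 5071, 4736 and 3650. H2-DMb2 had 468, 194, 133 and 452 normalized counts against 180, 271 and 29.98, a log2 fold change of 1.25 (SE 0.71) that was 1.10 without R1 and R2. The transactivator Ciita failed the filter, with 772, 61.8, 1.18 and 0 normalized counts in R1 to R4 and 0, 7.77 and 0.909 in Control ST.

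For MHC class I, the transactivator Nlrc5 had 164, 83.7, 167 and 221 normalized counts in R1 to R4 and 5.22, 42.2 and 46.3 in Control ST, a log2 fold change of 2.70 (SE 0.70) that was 3.05 without R1 and R2. All 4 K/BxN ST libraries exceeded the controls for this 1 of 12 genes (8.33%, against 2.68% of all genes), with R4 highest. Its log2 fold change in WT was 0.30, and the difference between genotypes had an unadjusted p of 0.0296. WT libraries held 161, 75.4 and 185 normalized counts of Nlrc5 after control serum, and 143, 111, 223 and 195 after arthritogenic serum. The TASTPM controls lay below every WT library, and R1 to R4 lay within the WT range. The class I genes themselves differed less. H2-K1 had 18920, 19300, 10950 and 13510 normalized counts across R1 to R4 and 16440, 13880 and 9960 in Control ST, so the groups overlapped. B2m, the light chain shared by class I molecules, had 68270, 82440, 64930 and 69400 normalized counts across R1 to R4 and 111300, 137200 and 77730 in Control ST, a log2 fold change of -0.58 (SE 0.25). Of 12 genes of the list 10 had a positive log2 fold change, and the median was 0.343. These became 8 and 0.0859 without R1 and R2.

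Glycolysis, the TCA cycle and oxidative phosphorylation supply the energy of microglia, and activated microglia are known to raise glucose uptake. Of 18 glycolysis genes 14 had a positive log2 fold change, with a median of 0.647, and 8 had an unadjusted p below 0.05, all of them higher, against 2.6% of all genes. Slc2a1, the glucose transporter GLUT1, had 2265, 1988, 2605 and 2102 normalized counts in R1 to R4 and 1707, 1169 and 1697 in Control ST (log2 fold change 0.57, SE 0.21). Hk3, a hexokinase, had 2245, 2043, 2072 and 1742 normalized counts across R1 to R4 and 1483, 1015 and 1517 in Control ST. For both genes all 4 K/BxN ST libraries were above the controls, R3 and R4 included. The other hexokinases overlapped, as Hk1 had 1440, 816, 1123 and 839 normalized counts in R1 to R4 and 769.9, 293 and 841 in Control ST, and Hk2 had 1347, 1952, 2102 and 2775 against 2259, 2709 and 2336 (log2 fold change -0.29, SE 0.26). Pfkp, the platelet form of phosphofructokinase, had 2148, 953, 107 and 95.9 normalized counts in R1 to R4 and 1.05, 75.5 and 56.3 in Control ST, so R1 and R2 were far above and R3 and R4 only just above the controls. Of the enzymes of the later steps, Pgk1 and Pkm were high in R1 and R2 only. Pkm, the last enzyme of the pathway, had 23010, 15550, 5630 and 5812 normalized counts in R1 to R4 and 5895, 4328 and 3791 in the 3 controls, and its log2 fold change of 1.18 became 0.32 without R1 and R2. Gpi1, the protein that antibodies in K/BxN serum bind, had 7518, 6011, 2487 and 1435 normalized counts in R1 to R4 and 1316, 1655 and 1543 in Control ST, with R4 inside the range of the controls. In all, 3 of 18 glycolysis genes had all 4 above (16.7%, against 2.68% of all genes), namely Slc2a1, Hk3 and Pfkp. Aldoc was the 1 glycolysis gene with all 4 below (5.56%, against 2.77%), at 491, 518, 813 and 773 normalized counts against 858, 868 and 903. Without R1 and R2, 11 of 18 genes had a positive log2 fold change and the median was 0.112.

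In the TCA cycle, citrate synthase (Cs) had 3488, 2740, 3264 and 2492 normalized counts in R1 to R4 and 1670, 1980 and 1774 in Control ST, with a log2 fold change of 0.72 (SE 0.19). The groups did not overlap for Cs, and R1 and R3 were its highest libraries. In WT its log2 fold change was 0.22, and the unadjusted p of the difference between genotypes was 0.076. The groups overlapped for Sdha, a subunit of succinate dehydrogenase, with 6713, 5684, 5099 and 6660 normalized counts across R1 to R4 and 6501, 5206 and 6070 in Control ST. All 18 genes of the cycle had a positive log2 fold change, with a median of 0.21, and without R1 and R2 it was 9 of 18 with a median of 0.00505. The nuclear genes of respiratory chain complex I behaved alike, with 28 of 28 positive and a median of 0.355, and 12 of 28 and -0.118 without R1 and R2. For the proteasome, which degrades ubiquitinated proteins, 29 of 30 genes were positive with a median of 0.255, and 11 of 30 with -0.0549 without R1 and R2. The motif of NRF1, a factor that drives many mitochondrial genes, was searched as GCGCNTGCGC and found in 4 of 20 TCA cycle promoters (20%) and 6 of 26 complex I promoters (23.1%), against 10.5% of promoters of the genes past the filter.

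**Figure D3:**
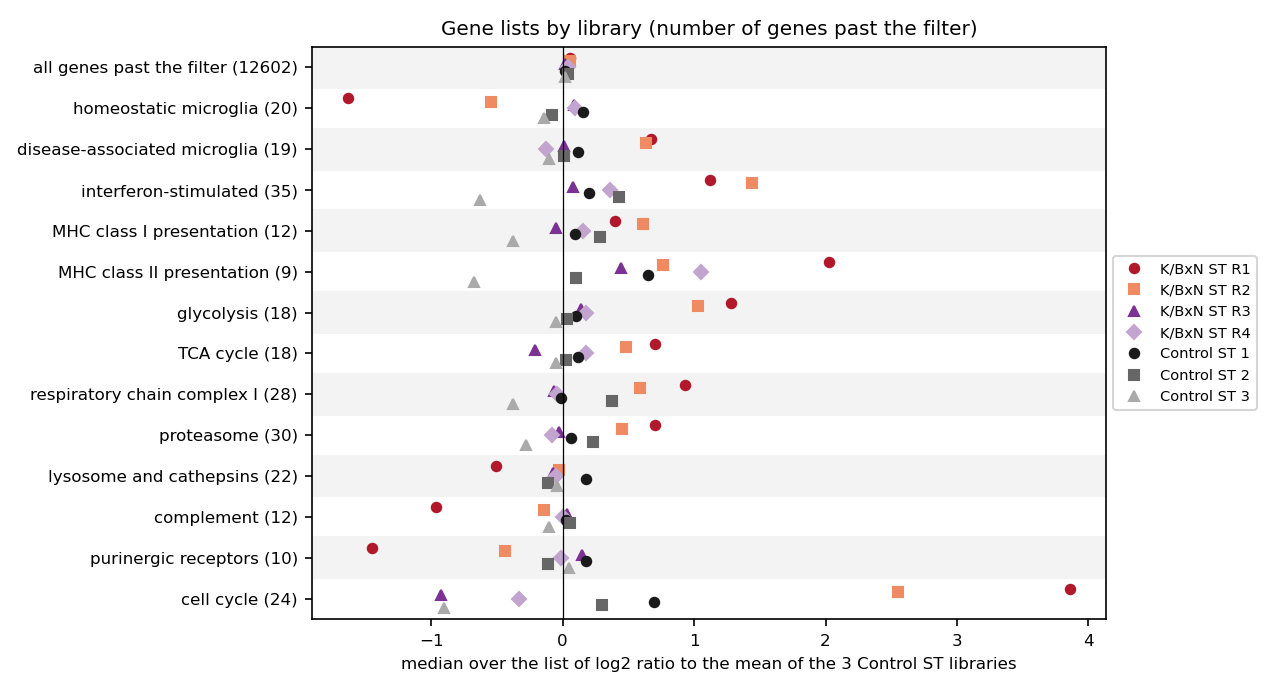
Median over the genes of each list of the log2 ratio of a library to the mean of the 3 Control ST libraries, 1 point per library, with the number of genes past the filter in brackets and all 12602 genes in the top row. R1 and R2 lie apart from the other 5 libraries for most lists, and the range of the controls holds R3 and R4 for the interferon-stimulated, complex I and proteasome lists.

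Among immediate early genes, which respond within minutes to many stimuli and to tissue dissociation, Fos had 1697, 934, 51.7 and 161 normalized counts in R1 to R4 and 16.7, 16.7 and 0 in Control ST (log2 fold change 5.65, SE 2.27). Junb had 6113, 3522, 5847 and 3347 normalized counts across R1 to R4 and 2251, 2965 and 3116 in Control ST, with R1 and R3 highest. Fos and Junb were the members with no overlap among 19 (10.5%, against 2.68% of all genes), of which 11 had a positive log2 fold change and the median was 0.484. With R1 and R2 left out, 12 of 19 were positive and the median was 0.192. Jun, the usual partner of Fos, overlapped, with 924, 1138, 3205 and 1495 normalized counts against 1618, 1857 and 2338, and the heat shock gene Hspa1b had 592, 267, 166 and 237 against 476, 394 and 2120.

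In the TLR4 pathway, which links galectin-3 and other danger signals to NF-κB, the receptor Tlr4 had 2509, 2816, 4837 and 5530 normalized counts in R1 to R4 and 4402, 3850 and 5617 in Control ST. R1 and R2 were lowest and the groups overlapped (log2 fold change -0.30, SE 0.35). Its co-receptors overlapped too, with Ly96 at 1183, 1310, 1494 and 1435 normalized counts against 2183, 2263 and 1480, and Cd14 at 7511, 14950, 17160 and 16300 against 19580, 18570 and 15370. Downstream of the receptor, the adaptor Myd88 had 7735, 2763, 2408 and 1832 normalized counts across R1 to R4 and 1772, 1797 and 1517 in Control ST, with R4 just above the controls. Irak1, the kinase recruited by Myd88, had 1666, 1450, 1765 and 1257 normalized counts in R1 to R4 and 1074, 938 and 943 in Control ST, a log2 fold change of 0.63 (SE 0.23). Myd88 and Irak1 were the members with all 4 above among 21 (9.52%, against 2.68% of all genes), of which 10 had a positive log2 fold change and the median was -0.033. In R3 and R4 alone against the controls, it was 11 of 21 and 0.0218. For the cytokines and chemokines, 5 of 15 genes had a positive log2 fold change, with a median of -0.143 and no gene without overlap, and without R1 and R2 it was 3 of 15 and -0.387. Il1b had 3122, 952, 182 and 24.8 normalized counts in R1 to R4 and 378, 142 and 115 in Control ST, and Il6 had 83.2, 187, 466 and 199 against 473, 450 and 297. Socs3, the feedback inhibitor of STAT3, had 5708, 1611, 9531 and 621 normalized counts across R1 to R4 and 670, 330 and 933 in Control ST, where only R4 overlapped (log2 fold change 2.20, SE 0.80). Stat3 itself had 5208, 3097, 4188 and 2650 against 2848, 1846 and 4265, and 5 of the 12 genes of STAT3 and cytokine receptor signalling had a positive log2 fold change, with a median of -0.0999. Without R1 and R2 the median turned to 0.252, with 9 of 12 positive. Il10rb was the 1 member with all 4 below (8.33%, against 2.77% of all genes). It had 2909, 4551, 5070 and 4765 normalized counts against 6745, 5264 and 5685 (log2 fold change -0.47, SE 0.21).

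Of the 349 genes with all 4 K/BxN ST libraries below the controls, those with the smallest limma p included a growth factor and a costimulatory ligand. Fgf1 had 0, 10.5, 0 and 12.4 normalized counts in R1 to R4 and 157, 68.8 and 68.1 in Control ST, a log2 fold change of -4.70 (SE 1.02). R3 and R4 lay as far below the controls as R1 and R2, and the log2 fold change in WT was -1.15. Cd80, a ligand of CD28 and CTLA-4 on T cells, had 255, 391, 498 and 667 normalized counts in R1 to R4 and 1250, 839 and 1025 in Control ST (log2 fold change -1.26, SE 0.32). R4 was the K/BxN ST library nearest to the controls, and without R1 and R2 the log2 fold change was -0.83. Elmod3, a GTPase-activating protein, had 236, 167, 116 and 195 normalized counts against 443, 536 and 532. Among signalling genes, Rasgef1b had 242, 428, 579 and 407 normalized counts in R1 to R4 and 867, 634 and 1053 in Control ST, and the tyrosine kinase Tec had 814, 862, 1036 and 1546 against 1758, 1673 and 2573. R3 for Rasgef1b and R4 for Tec were close to the lowest control. Myo10, an unconventional myosin of filopodia, had 12.5, 13.3, 0 and 0 normalized counts across R1 to R4 and 58.5, 91.0 and 39.1 in Control ST. Ubqln2, which carries ubiquitinated proteins to the proteasome, had 42.6, 59.0, 10.6 and 50.8 normalized counts against 155, 165 and 188, and the zinc finger gene Zfp945 had 105, 248, 95.2 and 211 against 418, 314 and 596.

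Genes of the microglial surface and lysosome were lower chiefly in R1. All 20 homeostatic genes had a negative log2 fold change, with a median of -0.491, but without R1 and R2 there were 12 positive ones and a median of 0.0816. P2ry12, the ADP receptor through which microglia sense injured neurons, had 34660, 79940, 107600 and 110300 normalized counts in R1 to R4 and 165500, 124800 and 106500 in Control ST. Only R1 and R2 were below all 3 controls by a wide margin, and R3 and R4 were near the third control. Of 10 purinergic receptor and nucleotidase genes 1 had a positive log2 fold change, with a median of -0.502, and without R1 and R2 it was 4 of 10 and -0.00714. Adora3, the adenosine A3 receptor, was the member with no overlap (10%, against 2.77% of all genes), at 460, 801, 1326 and 1258 normalized counts against 1822, 1567 and 1685 (log2 fold change -0.93, SE 0.33). Among complement genes, C1qc had 56380, 143600, 154600 and 154200 normalized counts across R1 to R4 and 158300, 184400 and 157900 in Control ST, where R3 and R4 were only just lower. The complement list had 3 of 12 genes positive and a median of -0.384, which turned to 7 of 12 and 0.0149 without R1 and R2. In the lysosomal list 6 of 22 genes were positive, with a median of -0.176, and 8 of 22 and -0.0705 without R1 and R2. In this list 2 cathepsins had all 4 below (9.09%, against 2.77% of all genes). Ctsl had 12050, 31600, 29320 and 31640 normalized counts against 34670, 37850 and 33410, and Ctsh had 21670, 26740, 29650 and 28480 against 38720, 33250 and 31160. Of the phagocytic receptors 8 of 18 were positive with a median of -0.12, and 10 of 18 with 0.0255 without R1 and R2, and the Fc receptor Fcgr3 had all 4 below (5.56%, against 2.77% of all genes), at 30220, 37510, 46440 and 41510 normalized counts against 47650, 47970 and 49260.

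Disease-associated genes showed no common direction, with 11 of 19 positive, a median of 0.279, and 7 of 19 and -0.228 without R1 and R2. Apoe, the lipid carrier, had 40800, 34490, 15140 and 8809 normalized counts in R1 to R4 and 10720, 10710 and 24720 in Control ST. Cst7, a cystatin that inhibits cathepsins, had 882, 1560, 422 and 440 normalized counts across R1 to R4 and 352, 549 and 246 in Control ST, so R3 and R4 lay within the controls. Lilrb4a, an inhibitory receptor, was the 1 member with all 4 above (5.26%, against 2.68% of all genes), at 388, 140, 120 and 58.7 normalized counts against 0, 41.1 and 28.2. Some markers of microglia were also measured as proteins in this model, Trem2 and Cd68 by immunostaining and Mertk and Itgax by cytometry, and for their transcripts the groups overlapped. Trem2 had 9858, 21310, 23030 and 25020 normalized counts in R1 to R4 and 23990, 31090 and 19970 in Control ST. Mertk, a receptor for apoptotic cells, had 3540, 6667, 13270 and 12610 against 11720, 7809 and 12940. Itgax, which encodes CD11c, had 406, 236, 3.52 and 396 normalized counts across R1 to R4 and 267, 290 and 211 in Control ST, where R3 alone was low. Cd68 had 18000, 27420, 20060 and 20840 against 29510, 23950 and 22090. Among cholesterol genes, 12 of 18 were positive with a median of 0.244 and no gene without overlap, and 10 of 18 with 0.106 without R1 and R2.

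High in R1 and R2 only were 233 genes (1.85%), that is at least 2-fold over the highest control in both and not above it in R3 or R4. Another 252 of the 1727 genes that failed the filter (14.6%) met the same definition. The converse, low in R1 and R2 only, held for 31 genes (0.246%). Ly6c2, the surface marker of classical monocytes, had 29130 and 15650 normalized counts in R1 and R2, 12.9 and 10.2 in R3 and R4, and 2.09, 17.8 and 7.27 in Control ST. Ccr2, the chemokine receptor that brings monocytes out of the marrow, had 27030 and 8537 normalized counts in R1 and R2 and between 3.13 and 20.9 in the other 5 libraries. S100a8, a calcium-binding protein abundant in neutrophils and monocytes, had 39500 and 50150 in R1 and R2 and 7.31 to 52.7 elsewhere. R3 and R4 lay within the range of the controls for these 3 genes. Reads on Ly6c2 can also be shared with its close copy Ly6c1. Further genes at the top of the class were Emb, at 14120 and 4982 normalized counts in R1 and R2 against 15.8 to 21.1 elsewhere, and S100a6, at 6615 and 2729 against 2.73 to 16.7.

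Further members of the class were S100a11, with 5559 and 3292 normalized counts in R1 and R2 and 14.5 to 78.3 elsewhere, and the adhesion receptor Adgre5, with 4015 and 1587 against 1.18 to 61.6. Ifitm2 had 10200 and 3104 normalized counts in R1 and R2 and 30.3 to 122 elsewhere, and the tubulin Tuba4a had 6919 and 5348 against 194 to 278. Lgals3, which encodes galectin-3, had 22740 and 9134 normalized counts in R1 and R2, 236 and 172 in R3 and R4, and 64.8, 75.5 and 286 in Control ST. R3 and R4 lay within the controls, and the log2 fold change of 3.92 (SE 2.40) was 0.84 without R1 and R2. Of the other TLR4 ligands, Hmgb2 had 9668, 5527, 261 and 458 normalized counts in R1 to R4 and 454, 578 and 499 in Control ST, whereas Hmgb1 had 5243, 3438, 1839 and 2278 against 2996, 2485 and 1993. Hmgb3 failed the filter, with 416 and 243 normalized counts in R1 and R2 and 0 in the other 5 libraries, and Anxa1, with 10150 and 6563 in R1 and R2, had 3.13 to 49.1 elsewhere. Whether microglia or blood-derived cells made these transcripts in R1 and R2 was not tested. Of the 15 classical monocyte markers listed, 8 passed the filter, and 7 of these 8 belonged to the class (87.5%, against 1.85% of all genes). The other 7 of the 15 failed the filter. High values in R1 and R2 help a gene both to pass the filter and to enter the class, so this share is a description.

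**Figure D4:**
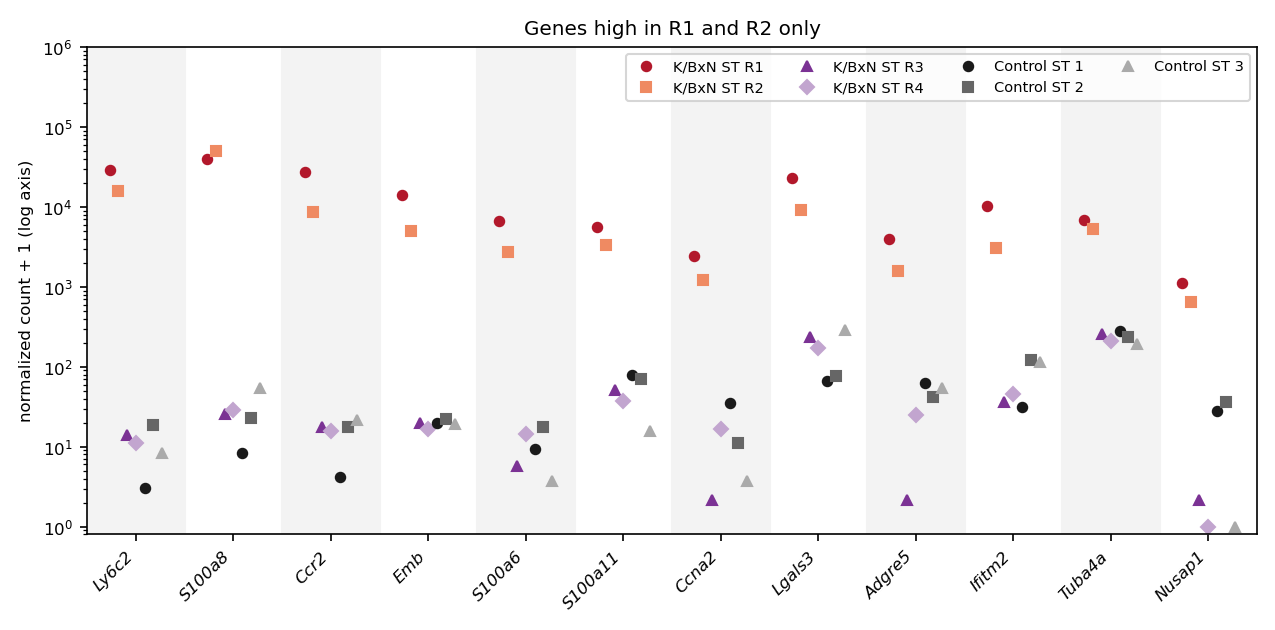
Normalized count plus 1, on a log axis, of 12 genes that were high in R1 and R2 only, 1 point per TASTPM library. R1 and R2 lie above the other 5 libraries by choice, and R3 and R4 lie among or below the 3 Control ST libraries, as for Ly6c2 with 29130 and 15650 against at most 17.8.

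The cell cycle list had many members in this class. Of 24 genes past the filter, 23 had a positive log2 fold change, with a median of 1.27, 14 were high in R1 and R2 only (58.3%, against 1.85% of all genes) and none had all 4 libraries above the controls. Top2a, which untangles DNA before mitosis, had 2679 and 1296 normalized counts in R1 and R2, 0 and 5.64 in R3 and R4, and 72.1, 61.1 and 0 in Control ST. Ccna2, cyclin A2, had 2459 and 1206 in R1 and R2 and 1.18 to 34.5 elsewhere, and the spindle protein Nusap1 had 1123 and 650 against 0 to 35.5. Mki67 failed the filter, with 428 and 224 normalized counts in R1 and R2, 0 in R3 and R4 and 0, 26.7 and 0 in Control ST. Mcm6, a subunit of the replicative helicase, had 2022, 1144, 539 and 549 normalized counts in R1 to R4 and 598, 153 and 69.1 in Control ST, with R3 and R4 inside the range of the controls (log2 fold change 2.29, SE 0.67). Without R1 and R2, 9 of 24 genes were positive and the median was -0.524. The cell cycle homology region, through which the DREAM complex represses mitotic genes in resting cells, was searched as TTTGAA. It was found in 10 of 23 promoters of the list (43.5%), in 12.2% of promoters of the genes past the filter and in 17.9% of all promoters. The promoter of Top2a is printed because its reads lay almost wholly in R1 and R2, with its 2 matches in capitals. It lies at chr11:99024140-99024439 of GRCm38.p6 on the minus strand, and the matches begin 179 and 23 bases before the start site, the second on the reverse strand.
Top2a: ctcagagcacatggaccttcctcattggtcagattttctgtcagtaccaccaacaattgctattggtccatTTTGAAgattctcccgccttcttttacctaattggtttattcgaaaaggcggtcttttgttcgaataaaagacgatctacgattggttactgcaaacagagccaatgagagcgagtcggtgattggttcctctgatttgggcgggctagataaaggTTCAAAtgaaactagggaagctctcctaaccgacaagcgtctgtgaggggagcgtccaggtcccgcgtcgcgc

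The classical monocyte list had all 8 genes past the filter positive, with a median log2 fold change of 2.30, and 4 of 8 without R1 and R2. Lyz2, lysozyme of macrophages and neutrophils, had 536200 and 258100 normalized counts in R1 and R2, 11870 and 10310 in R3 and R4, and 12800, 22930 and 15950 in Control ST. Chil3 was the 1 member of 8 with all 4 above (12.5%, against 2.68% of all genes), at 53700, 69030, 35.2 and 30.5 normalized counts against 13.6, 19.98 and 25.4, and Ltf of the neutrophil list had 25010, 18110, 16.5 and 13.5 against 2.09, 9.992 and 9.995. In R3 and R4 these genes exceeded the controls by a small amount at low counts, so that being above in all 4 libraries joins very unequal values. Of the neutrophil list 5 of 6 genes past the filter were positive, with a median of 5.72, and 6 of 6 with 0.484 without R1 and R2. Ngp, a granule protein of neutrophils, had 63730, 50470, 41.1 and 25.95 normalized counts in R1 to R4 and 11.5, 32.2 and 22.7 in Control ST, with R4 within the controls. Ly6g, the marker that defines mouse neutrophils, had 440 and 567 normalized counts in R1 and R2 and 0 in each of the other 5 libraries.

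DESeq2, an alternative test on the recovered reads, called 15 genes. Among them were Ly6c2, S100a8, Ccr2, Emb, Chil3, Ngp and Ltf, which all had high values in R1 and R2. Olfm1, an olfactomedin, had 2762, 761, 21.2 and 48.5 normalized counts in R1 to R4 and 0 in the 3 controls (DESeq2 adjusted p = 5.55e-16). It was thus present in all 4 K/BxN ST libraries and in no control, but R3 and R4 were far below R1 and R2. With the controls at 0, its DESeq2 log2 fold change was 26.7. The limma log2 fold change was 7.78 (SE 2.64), with a limma adjusted p of 0.965. Others called higher were mt-Co3 (adjusted p = 8.91e-04), mt-Nd4l (0.0222), Ncapg (0.0222) and Polr3c (0.0374). Fgf1 (adjusted p = 0.045) and the predicted gene Gm10925 (0.0275) were called lower, and Gm2606 (0.0222) was called higher. For Polr3c, mt-Co3, mt-Nd4l, Ncapg, Olfm1, Gm2606 and Fgf1, R3 and R4 lay on the same side of all controls as R1 and R2, whereas Gm10925 overlapped. The same side held for Chil3 and Ltf, though by a small amount at low counts in R3 and R4. Genes in this paragraph outside the naming rule were named after their values were seen.

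Whether the response differed between TASTPM and WT was tested by the interaction term of the fit, for which limma called 0 of 12602 genes (0%), with a smallest adjusted p of 0.999 and 387 genes at an unadjusted p below 0.05. DESeq2 called 4 genes with a higher and 14 with a lower response in TASTPM. The smallest limma p among named genes was that of Sh3yl1, which encodes an adaptor protein that binds phosphoinositides. It had 23.9, 2.85, 0 and 0 normalized counts under K/BxN serum in TASTPM, against 21.9, 36.6 and 27.3 under control serum, with log2 fold changes of -3.21 in TASTPM and 5.25 in WT (interaction -8.46, SE 1.71, unadjusted p = 1.85e-04). The values in TASTPM were few reads, and R1 overlapped with the controls. Itih3, a protein that stabilizes hyaluronan matrix, had 31.2, 35.2, 0 and 121 against 65.8, 60.0 and 171 normalized counts, and its interaction was -8.23 (SE 1.82). Its log2 fold change was -2.19 in TASTPM and 6.03 in WT, where it had 88.5, 35.4, 122 and 44.7 in K/BxN ST and 0 in each Control ST library. Megf11 had 6.24, 53.3, 62.3 and 34.97 against 0, 25.5 and 2.73, with an interaction of 7.60 (SE 1.74). Among the gene lists, the median interaction was 4.36 for red cell genes. Of these, 4 of 5 had an unadjusted p below 0.05, against 387 of all 12602 genes. Those 4 were the globin genes, and 1 WT Control ST library held 16240 normalized counts of Hba-a1, against 598 and 1999 in the others. The median interaction was 6.92 for the sex-linked genes. It was 1.21 for neutrophil, -0.609 for classical monocyte, -3.13 for border-associated macrophage and -1.17 for cell cycle genes, lists in which at most 1 gene had an unadjusted p below 0.05. Of the mitochondrially encoded genes 6 of 15 reached that p, with a median of 0.172, and of the immediate early genes 5 of 19, with a median of -0.315. The count over all genes was 387 of 12602. The mitochondrial list was drawn up after its values were seen and the others with earlier results known, so these counts are a description. Slc2a1 had a log2 fold change of -0.50 in WT against 0.57 in TASTPM, an interaction of 1.07 (unadjusted p = 0.0031). For the lists of homeostatic, lysosomal and complement genes the median interaction was between -0.0236 and 0.0777.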

How the data were processed

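Per the labels, libraries were made from 2000 sorted cells, and the authors sequenced them after SMART-Seq amplification, aligned the reads with HISAT2 2.1 to GRCm39, counted reads on genes with featureCounts 1.5.2 after FastQC 0.11.9, and normalized them with DESeq2. The deposited unit is a signal, in which the reads of each gene were scaled by 1 factor per library. Whole reads were recovered for 100% of values (tolerance 0.01 reads). The 33 genes with no symbol were counted and not named, and 7 of 14336 entries repeated an identifier and were dropped. R1 to R4 are named as in the labels. Other libraries are numbered within their group in deposited order, since their column numbers differ from those of the titles.

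Values were tested with limma 3.58.1 (R 4.3.3) on log2(normalized count + 1), with a variance trend, in 1 fit of 4 group means to all 14 libraries, so fold changes are on that scale. For genes with low values they depend on the pseudocount and, where some libraries are at 0, can be smaller or larger than the fold of the means. SE is the standard error of that fit. A call needs a Benjamini-Hochberg adjusted p below 0.05 over 12602 genes and an absolute log2 fold change above 1. edgeR 4.0.16 and DESeq2 1.42.0 were run on recovered reads, for which DESeq2 left 24 adjusted p as NA. All tests were tested on simulated data. Other settings changed the normalization, pseudocount, filter, covariates and libraries.

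Members and gene lists were chosen with earlier results of these data known. Named were, leaving out genes with no symbol and predicted or clone genes (symbols of Gm and a number, or ending in Rik), the 12 with the smallest limma p with all K/BxN ST libraries above Control ST, the 8 below, the 12 highest in R1 and R2 only, the 3 with the smallest interaction p, and in each list the members with the highest and the lowest fold change and the highest level, and the genes and markers of the study. Some genes that this rule covers are not reported here. Further list members, among them all without overlap that are named, were picked after their values were seen. A read floor of 3 and all permutation tests cover counting or library spread alone. Promoters are from RefSeq (GRCm38.p6), and gene positions are from GRCm39 with a later annotation than that of the authors.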

Additional observations from a re-analysis of the deposited data

Results flagged for a closer look

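Among 119 sets of 4 TASTPM K/BxN ST values tested for a library far from the others, 5 were marked, and chance marks about 1 in 20. The number given is the gap to the nearest library divided by the range, on the log2 scale. R1 was the low library for Ctss (0.965), C1qc (0.927) and Cd14 (0.833), and it was also the library with the lowest share of microglial markers. R2 was the low library for Cpsf1 (0.956), and R3 was the low library for Itgax (0.88).

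For 6 genes, every TASTPM K/BxN ST library lay on one side of the mean of its controls on the log2 scale and every WT K/BxN ST library on the other. Their limma interactions on the log2 scale, each with an adjusted p of 0.999, were 0.91 for Ppp1r15b (unadjusted p = 0.00833), 7.06 for Hbb-bt (unadjusted p = 0.00419), 4.36 for Hba-a1 (unadjusted p = 0.00223), 7.68 for Gja1 (unadjusted p = 0.00705), -8.46 for Sh3yl1 (unadjusted p = 1.85e-04) and 7.6 for Megf11 (unadjusted p = 5.89e-04). None passed the adjusted threshold. The globin interactions include a WT Control ST library with 16240 normalized counts of Hba-a1, against 598 and 1999 in the other WT Control ST libraries.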

How the results depend on the processing

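limma called 0 genes for the response to serum in TASTPM under every other normalization, pseudocount, filter and covariate run. DESeq2 called 15 genes, 32 on the 7 TASTPM libraries alone and 88 without a filter, which was added after the data were seen. With 1 library left out, the count was 0 to 1, with Slc25a29 called without the second Control ST library and Scimp without the third. For the interaction it stayed at 0, except for 18 with DESeq2 and 36 with DESeq2 without a filter. Array weights raised the genes at an unadjusted p below 0.05 from 531 to 1632, with 0 called.

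Genes above in all 4 libraries numbered 457 to 841 with 1 library left out, and genes below 468 to 875, since fewer libraries have to be separated. Without R1 and R2 these counts were 1199 and 1189. Genes high in R1 and R2 only numbered 485 without a filter and 104 with 10 reads required in all 7 libraries.

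Of 1149 refits of 45 named genes, 25 reversed the sign, in 11 genes. The 45 left out genes named only as members of a list. Some of those left out also turned sign without R1 and R2, such as Lyz2 (1.94 to -0.60) and Hmgb1 (0.26 to -0.26). Without R1 and R2, the log2 fold changes were -0.16 for Emb, -0.022 for S100a11, -0.91 for Ccna2, -2.84 for Adgre5, -0.90 for Ifitm2, -0.0060 for Tuba4a, -2.78 for Nusap1, -0.71 for Ifitm3, 0.18 for Tlr4 and 0.29 for Mertk. With monocyte and neutrophil markers as a covariate they were -2.99 for Adgre5, -0.64 for Ifitm2, -2.22 for Nusap1, -0.25 for Ifitm3, 0.12 for Tlr4 and 0.17 for Mertk. With Xist as a covariate they were -1.75 for Adgre5, -0.18 for Ifitm2 and -1.48 for Nusap1. With 1 library left out, Adgre5 ranged from -0.25 (without R1) to 3.37 (without R3) and Itgax from -1.76 (without R1) to 0.40 (without R3). Itgax was 0.035 with edgeR, 0.027 with DESeq2, 0.030 with DESeq2 on TASTPM alone and 0.026 with DESeq2 without a filter. The cause was not tested.

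No paired analysis was possible because the groups share no replicate numbers. Genes with few reads rest on the pseudocount, and 3 reads per library were taken as the smallest detectable number.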
